A study of Mus musculus with 7 samples.

Results

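The collagen genes are the genes for the chains of collagens I to XXVIII, and 44 of the 56748 genes counted in the series were taken as members because their symbol reads Col, digits, a, digits and nothing more and they code for protein. All 44 were accounted for. Of these, 22 had at least 15 counts over all libraries, 16 also passed the filter on low counts that leaves a gene for testing (9489 genes in all), and 3, Col4a6, Col6a5 and Col6a6, had no count in any library. The threshold of 15 counts fell between Col2a1, with 19 counts, and Col6a2, with 13. RNA came from muscle stem cells (MuSCs) of hind limb muscles of adult mice, in 3 WT and 4 Jag2sm samples. The cells had been depleted of CD31, CD45 and Sca1 positive cells, selected for integrin α7 on magnetic columns, and kept on plates coated with collagen in a growth medium with serum and bFGF, in both genotypes. Jag2sm mice are homozygous for a naturally occurring germline missense variant of Jag2, a ligand of NOTCH receptors, so every cell of the animal carries it. The variant is described as hypomorphic by the study, and the labels of these samples give it as Jag2-/-. The labels name neither the sex nor the age of each animal, and they do not say whether replicates are separate animals. In each genotype, some libraries held counts of Xist, an RNA of the inactive X chromosome, and others held counts of Y-linked genes. So neither genotype came from 1 animal alone. The p-values measure the spread between these samples, which may still be technical in part.

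A collagen molecule is a triple helix of chains built of triplets of residues that begin with glycine, the residue small enough for the inside of the helix. Fibrillar collagens (I, II, III, V, XI, XXIV and XXVII) have a long helix, unbroken in all but the last pair, collagen IV builds the network of basement membranes, collagen VI forms beaded filaments around muscle fibres, and collagens with interrupted helices sit on fibrils (FACIT), in basement membrane zones (multiplexins) or in the plasma membrane. MuSCs lie between the fibre and its basement membrane, and collagens V and VI, which MuSCs can make themselves under NOTCH signalling, are known parts of the niche that keeps them quiescent.

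The helix can be read from the coding sequence as codon triplets that begin with a glycine codon, GGN. In the reference transcripts, the longest unbroken run of such triplets was 338 to 344 in Col1a1, Col1a2, Col2a1, Col3a1, Col5a1 and Col5a2, and 216 and 217 in Col24a1 and Col27a1. It was 57 in Col19a1, 40 in Col25a1, 44 in Col13a1 and 30 in Col18a1 and Col15a1. Col19a1, on the minus strand of chromosome 1 (24296772 to 24627011, GRCm39), codes for a FACIT of muscle that is made by differentiating myogenic cells of the embryo. Col25a1, on the plus strand of chromosome 3 (129925150 to 130393532), codes for a transmembrane collagen that muscle needs for its innervation. Coding exon 9 of Col19a1 (chr1:24549924-24549968) and coding exon 3 of Col25a1 (chr3:130180524-130180568) are printed here because these are the genes the comparison turned on, with the whole glycine codons of the repeat in capitals.
Col19a1 coding exon 9: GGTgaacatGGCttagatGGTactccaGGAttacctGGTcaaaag
Col25a1 coding exon 3: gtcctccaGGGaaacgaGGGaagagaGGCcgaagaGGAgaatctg
Each exon is 45 bases long. Exons whose length is a multiple of 9 bases, which keep the triplet in frame, made up 75.0% of the inner coding exons of Col19a1 and 77.1% of those of Col25a1.

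The 250 bases before the transcription start of both genes are printed too, from the RefSeq promoter table, which uses build GRCm38.p6 and held windows for 17 of the 22 members. The letters CANNTG, the E-box to which MYOD and myogenin can bind, are in capitals for Col19a1. For Col25a1, which held none, the capitals mark a stretch of 16 bases that the window held in 2 copies.
Col19a1 upstream (chr1:24587438-24587687, minus strand, GRCm38.p6): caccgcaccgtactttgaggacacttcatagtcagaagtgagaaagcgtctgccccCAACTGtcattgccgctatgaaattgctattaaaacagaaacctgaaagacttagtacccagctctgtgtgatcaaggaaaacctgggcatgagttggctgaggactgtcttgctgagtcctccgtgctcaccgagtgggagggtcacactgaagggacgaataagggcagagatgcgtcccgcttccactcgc
Col25a1 upstream (chr3:130180595-130180844, plus strand, GRCm38.p6): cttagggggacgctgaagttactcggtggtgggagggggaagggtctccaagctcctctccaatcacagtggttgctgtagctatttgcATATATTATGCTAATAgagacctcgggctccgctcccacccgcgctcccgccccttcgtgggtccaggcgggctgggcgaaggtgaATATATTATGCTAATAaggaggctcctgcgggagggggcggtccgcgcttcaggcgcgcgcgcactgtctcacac
CANNTG, which reads the same way on both strands, was in 66.2% of all 32851 windows and in 10 of the 17 matched members. A repeat of 16 or more bases was in 4.96% of all windows. TGGGAA, the letters of the RBPJ site through which NOTCH acts, searched on both strands, was in 21.6% of all windows and in 3 of the 17 members, among them neither Col19a1 nor Col25a1. CAGCTG, a form of the E-box that is counted within CANNTG, was in 13.0% of all windows and in 2 members. A match is a description of these letters only.

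Between 187834 and 1937581 reads were counted on genes per library, and WT replicate 1 was the shallowest, so that 3 counts there made 17.3 CPM (counts divided by the TMM-adjusted library size) against 1.48 to 4.24 CPM in the other libraries. In WT replicate 1, 45.1% of aligned reads fell on no counted gene, against 20.8% to 25.7% in the other libraries. Its log2 CPM had Pearson correlations of 0.61 to 0.78 with the other libraries, which had 0.83 to 0.97 among themselves. Unaligned reads were 46.0% to 50.8% of all reads in Jag2sm replicates 1, 2 and 4 and 2.44% to 3.24% in the other libraries. Jag2 was at 80.7 to 116 CPM in WT and 42.4 to 78.8 CPM in Jag2sm, which does not check a missense genotype. Myod1, a marker of the myogenic lineage, averaged 778 CPM in WT and 685 CPM in Jag2sm. The levels of the list of differentiated muscle genes were far apart, with 14 of its 15 tested genes called lower, where 4.84% of all tested genes were. The summed level of the list was 33846 to 54663 CPM in WT and 1290 to 8758 CPM in Jag2sm. The samples are bulk RNA, so fewer cells of a type and less RNA per cell cannot be told apart.

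Among the collagens, Col19a1 and Col25a1 fell in Jag2sm MuSCs and no other passed the test, in either direction. The test was the quasi-likelihood test of edgeR, and a gene was called when its p, adjusted over all 9489 genes by the Benjamini-Hochberg method, was under 0.05. So 2 of the 16 tested collagens were called lower (12.5%), where 4.84% of all tested genes were, and 0 were called higher, where 1.42% were. Without adjustment, 3 of the 16 had a p under 0.05, the third being Col18a1, a share near the 19.7% of all tested genes. DESeq2 and limma-voom each called 1 collagen higher, Col18a1. The median log2 fold change, Jag2sm minus WT, was -0.22 over the 16 collagens and 0.05 over all tested genes. It became 0.30 without WT replicate 2. Of the 16, 6 had a positive log2 fold change.

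**Figure D1:**
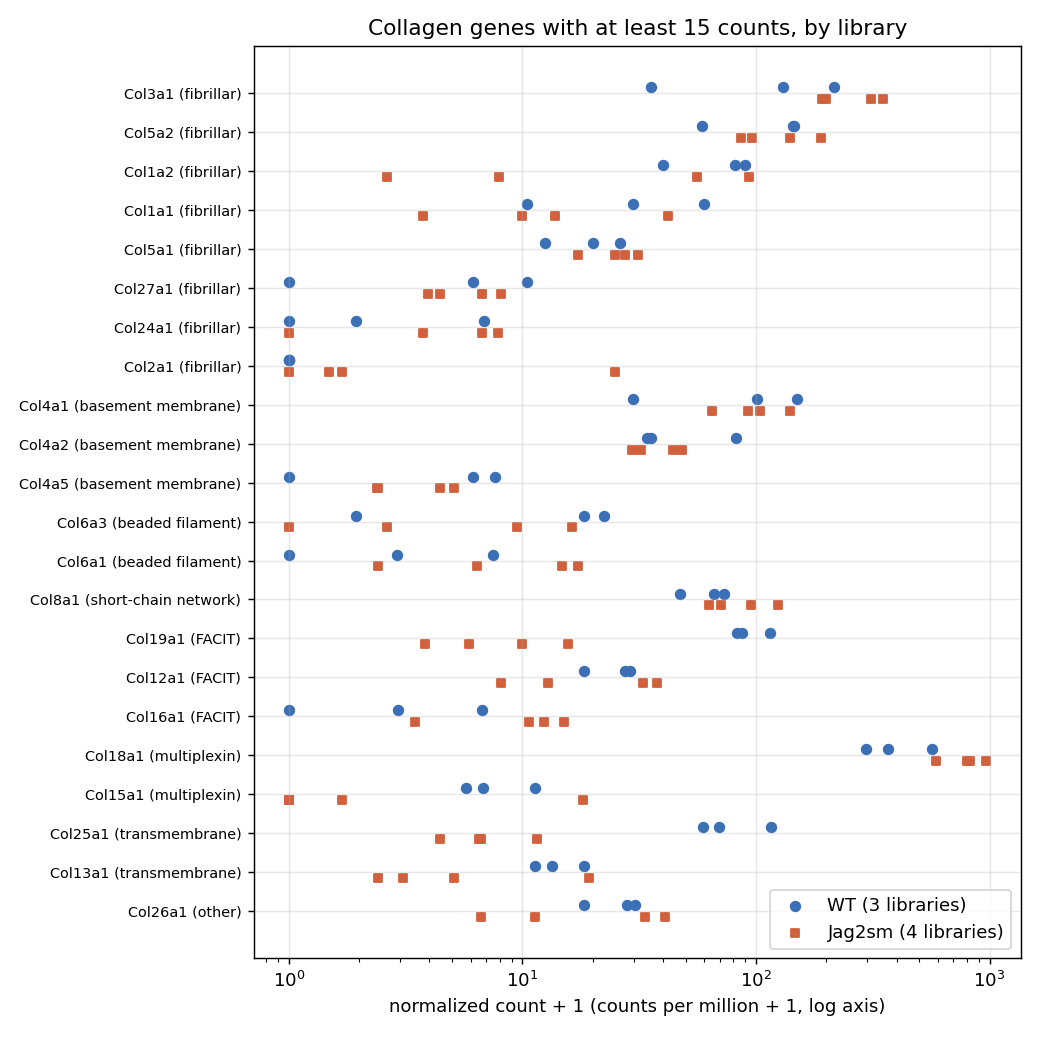
Normalized counts (CPM + 1, log axis) of the 22 collagen genes with at least 15 counts, 1 row a gene, with WT libraries as circles and Jag2sm libraries as squares. The circles and squares of Col19a1, Col25a1 and Col18a1 do not overlap, while those of the other 19 genes do. Of all tested genes, 10.3% had every Jag2sm library above every WT library and 12.2% had every one below.

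Col19a1 was at 86.5, 114 and 81.6 CPM in WT replicates 1 to 3, and at 2.83, 8.98, 4.93 and 14.7 CPM in Jag2sm replicates 1 to 4. Every Jag2sm library was below every WT library, as for 12.2% of all tested genes. The means were 94.1 ± 17.7 CPM (SD, n = 3) and 7.85 ± 5.22 CPM (n = 4), a log2 fold change of -3.56 (SE 0.38), or 11.8-fold, with an adjusted p of 0.0015 by edgeR. The counts behind these values were 278 in WT and 43 in Jag2sm, and their ratio on the log2 scale was -3.66 with a 95% exact binomial interval of -4.15 to -3.19, which covers counting error only.

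Col25a1 was at 115, 58.2 and 68.3 CPM in the WT replicates and at 5.66, 5.53, 3.45 and 10.6 CPM in the Jag2sm replicates. Here too the genotypes did not overlap, and the highest Jag2sm library, replicate 4, was the highest for Col19a1 as well. The means were 80.6 ± 30.5 CPM (SD, n = 3) and 6.31 ± 3.03 CPM (n = 4), with a log2 fold change of -3.58 (SE 0.38), or 12.0-fold, and an adjusted p of 0.0015 by edgeR. Both genes were lower in Jag2sm within each of the 3 batches that hold both genotypes, by differences in log2 CPM of -4.28, -3.44 and -3.65 for Col19a1 and -3.99, -3.05 and -3.76 for Col25a1. Scaled to a transcript kilobase, Col25a1 averaged 30.7 CPM per kb in WT and 2.40 in Jag2sm. Its transcript is short, 2624 bases, and a nanopore read can span a whole transcript, so the scaling may overstate it beside longer genes.

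The genes of differentiated muscle fell in the same libraries. Myog, the gene of the differentiation factor myogenin, was at 2894, 2222 and 2851 CPM in WT and at 711, 387, 110 and 906 CPM in Jag2sm, a log2 fold change of -2.33 with an adjusted p of 0.030 by edgeR. That adjusted p was 0.057 to 0.11 without WT replicate 1, 2 or 3 or Jag2sm replicate 1 or 2. Without Jag2sm replicate 2, Mymx, Acta1, Actc1 and Mybph of the same list lost their calls too. Jag2sm replicate 3 was the lowest for Myog and for Col25a1, and replicate 1 was the lowest for Col19a1. The part of these genes in the fall of the collagens was not tested. The plot of 4 collagens by library shows both genes beside Col18a1 and Col3a1.

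**Figure D2:**
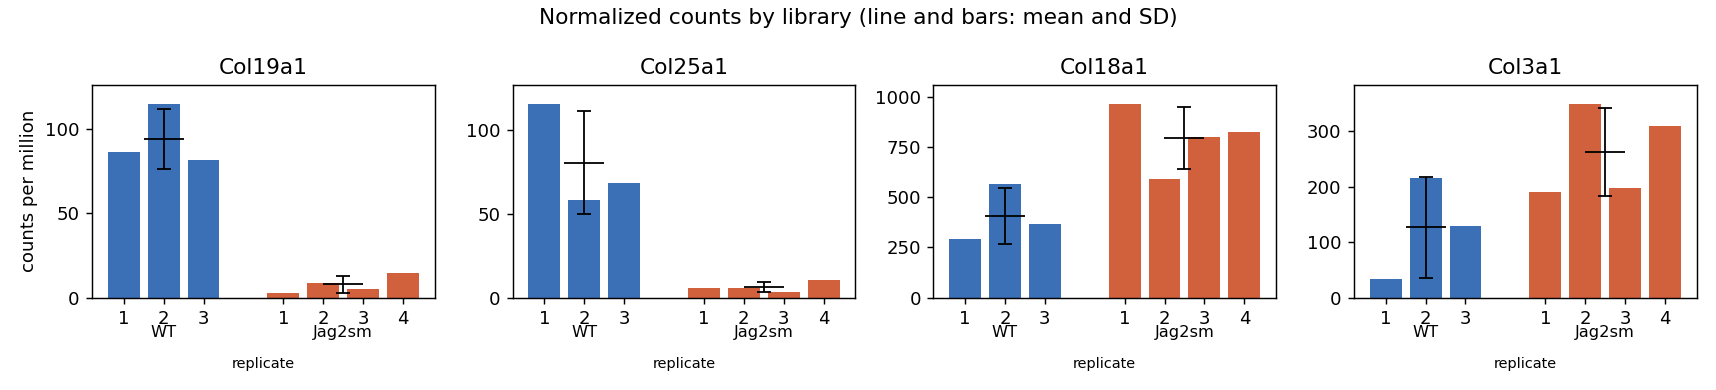
Normalized counts (CPM) of Col19a1, Col25a1, Col18a1 and Col3a1 in each library, with replicate numbers under the bars and a line and bars for the mean and SD of each genotype. Col19a1 and Col25a1 were at 58.2 CPM or more in each WT library and at 14.7 CPM or less in each Jag2sm library.

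The other tested FACIT and transmembrane collagens were not called. Col13a1, a transmembrane collagen of the neuromuscular junction, was at 17.3, 10.3 and 12.3 CPM in WT and at 1.41, 2.07, 18.2 and 4.08 CPM in Jag2sm. Replicate 3 lay above every WT library and the other 3 Jag2sm libraries lay below every WT library. Its log2 fold change was -0.66 (SE 0.72, adjusted p = 0.67 by edgeR), and without Jag2sm replicate 3 it was -2.10 with an adjusted p of 0.033. It rests on 78 counts. Col12a1, a FACIT of tendon and muscle matrix, was at 17.3 to 27.8 CPM in WT and 7.07 to 36.7 CPM in Jag2sm. Col16a1, a FACIT found in many tissues, was at 0, 1.94 and 5.69 CPM in WT and at 14.1, 9.67, 2.46 and 11.4 CPM in Jag2sm, with a log2 fold change of 1.38 (SE 0.74) and an adjusted p of 0.34 by edgeR. It was 2.30 without WT replicate 3 and 0.94 without WT replicate 2. Of the FACITs that mark tendon and its junctions, Col14a1 had 9 counts and Col22a1 had 5 over all libraries. Of the remaining transmembrane members, Col17a1 had 11 counts and Col23a1 had 4.

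Col18a1 was the collagen with the most counts, 5477 over all libraries, and the highest per kilobase in both genotypes, with 72.9 and 142 CPM per kb. Its product, a multiplexin of basement membranes, carries the fragment endostatin at its end. It was at 294, 564 and 365 CPM in WT and at 962, 591, 801 and 822 CPM in Jag2sm. Every Jag2sm library was above every WT library, as for 10.3% of all tested genes, but WT replicate 2 and Jag2sm replicate 2 lay close together. The means were 408 ± 140 CPM (SD, n = 3) and 794 ± 153 CPM (n = 4), a log2 fold change of 0.94 (SE 0.29) with an adjusted p of 0.085 by edgeR, so it was not called. The adjusted p was 0.016 with DESeq2 and 0.048 with limma-voom. It was 0.25 with the batch as a paired block. Within batches the difference in log2 CPM was 1.70, 0.07 and 1.13.

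Col18a1 took 31.7% to 33.3% of the summed CPM of the 22 collagens in WT libraries and 41.8% to 59.4% in Jag2sm libraries. Without it, the sums of the WT libraries averaged 839 ± 268 CPM (SD, n = 3) and those of the Jag2sm libraries 804 ± 125 CPM (n = 4). The other multiplexin, Col15a1, was at 5.76, 10.3 and 4.74 CPM in WT, and in Jag2sm 35 of its 36 counts were in replicate 3.

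**Figure D3:**
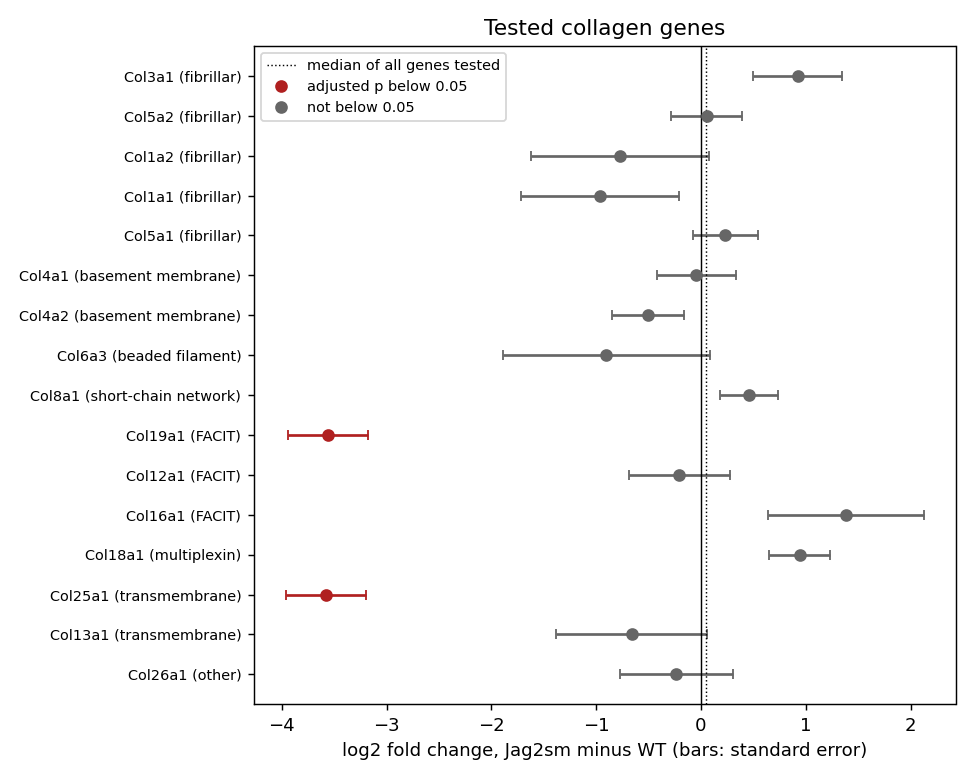
Log2 fold change of Jag2sm over WT with its standard error for the 16 tested collagens, grouped by class, red where the adjusted p was under 0.05. Col19a1 (-3.56) and Col25a1 (-3.58) are the red points, and the dotted line marks the median of all tested genes, 0.05.

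Of the fibrillar collagens, none passed the test. Of the 5 tested, 3 had a positive log2 fold change, 0 were called, and their median was 0.05. The summed level of the 8 measured members was 213, 543 and 351 CPM in WT and 452, 491, 558 and 434 CPM in Jag2sm. Col3a1, the chain of collagen III of loose connective tissue, had the most counts of them over all libraries, 1897, with 34.6, 216 and 129 CPM in WT and 191, 348, 198 and 310 CPM in Jag2sm. The groups overlapped through WT replicate 2. Its log2 fold change was 0.93 (SE 0.43, adjusted p = 0.26 by edgeR), with 1.52 without WT replicate 2 and 0.58 without WT replicate 1, and the difference was positive in each of the 3 batches. The adjusted p was 0.031 with no filter on low counts and 0.033 with a term for the libraries with Xist counts, a setting chosen after the data were seen.

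The 2 chains of collagen I, the main collagen of fibrils, ranged widely within each genotype. Col1a2 was at 80.7, 89.2 and 38.9 CPM in WT and at 55.1, 6.91, 92.6 and 1.63 CPM in Jag2sm, with a log2 fold change of -0.78 (SE 0.85) that was -1.93 without Jag2sm replicate 3 and -0.38 without Jag2sm replicate 4. Col1a1 was at 28.8, 58.8 and 9.48 CPM in WT and at 12.7, 2.76, 40.9 and 8.97 CPM in Jag2sm, with a log2 fold change of -0.97 (SE 0.75) that became 0.30 without WT replicate 2 and -2.21 without Jag2sm replicate 3. The highest library of Col1a1 and Col1a2 was WT replicate 2 among WT and Jag2sm replicate 3 among Jag2sm. Per kilobase of transcript, the log2 ratio of Col1a1 to Col1a2 was between -2.26 and -0.75 in the 6 libraries with 3 or more counts of each, although the protein holds more of the first chain.

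Col5a1 and Col5a2, the chains of collagen V, which starts fibrils and is a NOTCH target in MuSCs, overlapped between the genotypes. Col5a1 was at 11.5, 25.2 and 19.0 CPM in WT and at 24.0, 30.4, 26.6 and 16.3 CPM in Jag2sm, with a log2 fold change of 0.23 (SE 0.31). Col5a2 was at 57.6 to 144 CPM in WT and 85.6 to 189 CPM in Jag2sm, with a log2 fold change of 0.05 (SE 0.34) that took either sign with the libraries included. Col5a3, the third chain, had 0 counts in WT and 8 in Jag2sm, 1 to 3 in each library. A count of 0 in the pooled WT libraries allows up to 1.08 CPM. Calcr, the receptor through which collagen V is known to act on MuSCs, had 1 count in all.

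Members of the cartilage collagens II, IX, X and XI were at or near 0, with an exception. Col2a1 had 17 of its 19 counts in Jag2sm replicate 1, at 24.0 CPM, and at most 1 count in any other library. The same library stood apart for Rgs5, a pericyte gene, with 645 CPM against 11.5 to 40.4 CPM elsewhere, and for Sox9, a cartilage regulator that MuSCs also express, with 322 CPM against 47.4 to 121 CPM. For both, every Jag2sm library was above every WT library, as for 10.3% of all tested genes. Their log2 fold changes were 3.73 and 1.38, and neither was called (adjusted p = 0.13 and 0.10 by edgeR). Without Jag2sm replicate 1, Rgs5 was called higher, at 1.27 (adjusted p = 0.049 by edgeR). Smoc2, of the list of fibro-adipogenic progenitors, had 18 of its 27 counts in Jag2sm replicate 1, at 25.5 CPM. Mmp13, of the breakdown list, had 5 of its 7 counts there, at 7.07 CPM. The other genes of the mural list were not raised in that library. Pdgfrb, Kcnj8 and Abcc9 had 0 counts in that library, Cspg4 and the cartilage gene Acan had 1, and Acta2 was at 854 CPM against 798 to 2254 CPM elsewhere. Col24a1 had 35 counts and Col27a1 had 41, and neither passed the filter.

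**Figure D4:**
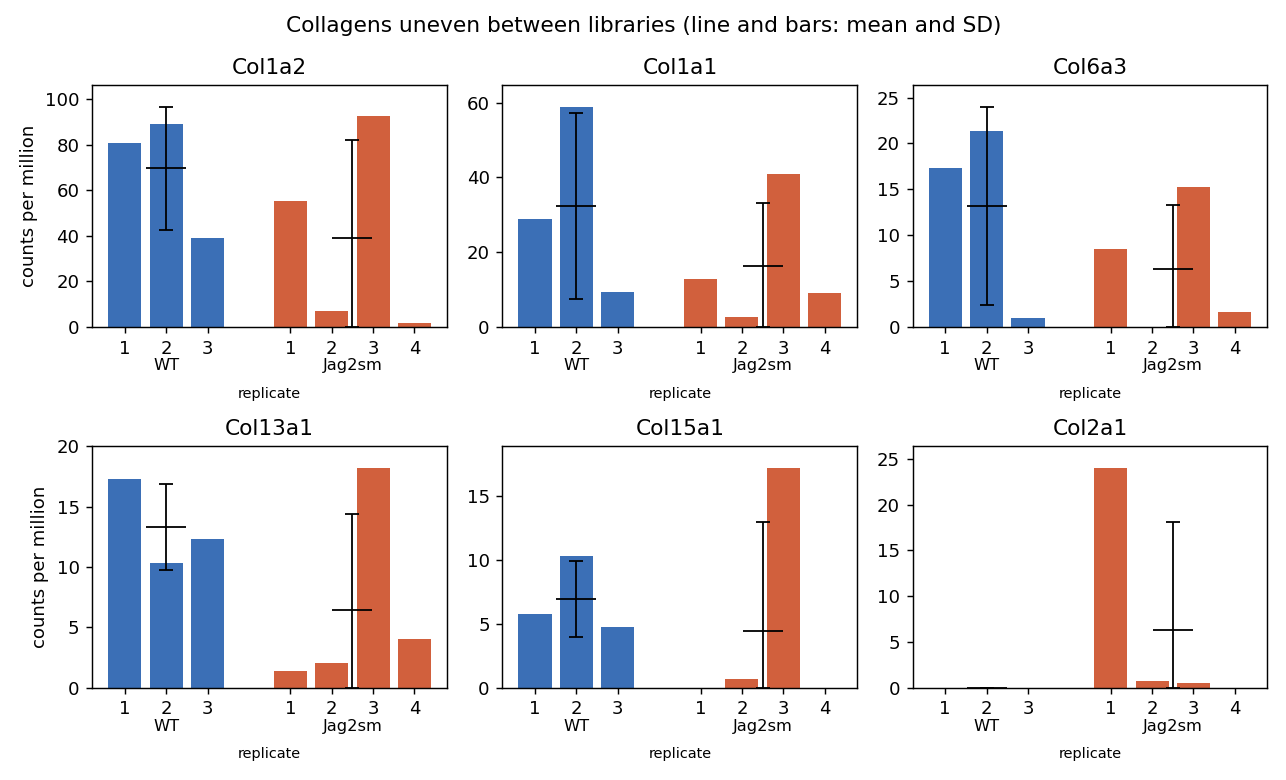
Normalized counts (CPM) by library of 6 collagens whose levels differed strongly between libraries of a genotype, with a line and bars for the mean and SD (bars stop at 0). Jag2sm replicate 3 is the highest Jag2sm library for Col1a2, Col1a1, Col6a3, Col13a1 and Col15a1, and Jag2sm replicate 1 for Col2a1.

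Of the basement membrane chains, Col4a1 and Col4a2, which form the common collagen IV trimer and are transcribed from neighbouring starts in opposite directions, were measured and not called. Col4a1 was at 28.8, 149 and 101 CPM in WT and at 63.6, 103, 138 and 91.3 CPM in Jag2sm. Its log2 fold change of -0.04 (SE 0.38) changed sign with the setting. Col4a2 was at 34.6, 81.4 and 33.2 CPM in WT and at 31.1, 28.3, 47.3 and 43.2 CPM in Jag2sm, with a log2 fold change of -0.51 (SE 0.34). WT replicate 2 was the highest of all libraries for both. Per kilobase, the log2 ratio of Col4a1 to Col4a2 was -0.23 in WT replicate 1, from 5 and 6 counts, and 0.90 to 1.89 in the other libraries. The 2 genes share exon bases on opposite strands, and the strand setting of the counting is not given in the sources used here. Col4a5 had 30 counts, Col4a3 had 3 and Col4a4 had 2.

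Collagen VI, the beaded filament of the MuSC niche, was low. Col6a3 was at 17.3, 21.3 and 0.95 CPM in WT and at 8.48, 0, 15.3 and 1.63 CPM in Jag2sm, a log2 fold change of -0.90 (SE 0.98) that became 0.67 without WT replicate 2 and -2.30 without Jag2sm replicate 3. Col6a1 was at 0, 6.46 and 1.90 CPM in WT and at 1.41, 13.8, 5.42 and 16.3 CPM in Jag2sm, from 64 counts. So the Jag2sm libraries with the most Col6a1, replicates 2 and 4, had the least Col6a3. Col6a2 had 13 counts and Col6a4 had 2. Col8a1, a short-chain collagen of vessel walls, was at 46.1, 71.7 and 65.4 CPM in WT and at 62.2, 94.7, 123 and 70.1 CPM in Jag2sm, with a log2 fold change of 0.46 (SE 0.27, adjusted p = 0.39 by edgeR). Col26a1, which belongs to no large class, was at 17.3 to 29.4 CPM in WT and 5.66 to 39.9 CPM in Jag2sm. Col7a1, the anchoring fibril of skin, had 11 counts.

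Other cells that make collagens were sought by their markers. The calls in these lists stand beside the 4.84% of all tested genes that were called lower and the 1.42% called higher. Of the 14 genes of fibro-adipogenic progenitors, the main matrix cells of muscle, Dpt and Lum had no count in any library, Dcn had 3 counts and Pdgfra 8, and the summed level was 69.2 to 101 CPM in WT and 88.2 to 201 CPM in Jag2sm, mostly Gsn. Mean CPM in WT and Jag2sm were 1.49 and 8.54 for Ly6a, 8.09 and 18.2 for Cd34, and 2.79 and 8.86 for Osr1. Smoc2 averaged 0 and 8.04 CPM. Adam12 averaged 10.7 and 1.69 CPM, and Dcn, Pi16 and Mfap5 also averaged less in Jag2sm. The 2 tested genes, Gsn and Cd34, had positive log2 fold changes, 1.03 and 0.71, and were not called. Jag2sm replicate 3, high for Col1a1, Col1a2, Col6a3 and Col15a1, had the lowest sum of the Jag2sm libraries, 88.2 CPM, of which Gsn made 64.5. It also had the highest Osr1 of all libraries, 16.3 CPM against 0 to 9.67 CPM, and the part of other cells in its collagens was not tested. The tenocyte list had 2 of 8 genes tested, Scx and Egr1. Scx was called lower, with a log2 fold change of -1.34 (adjusted p = 0.022 by edgeR). That adjusted p was 0.053 to 0.087 without WT replicate 2 or 3 or Jag2sm replicate 1 or 2. Egr1, at -0.15, was not called, and Tnmd had 2 counts. The summed level of this list was 217 to 392 CPM in WT and 89.7 to 268 CPM in Jag2sm, mostly Egr1 and Scx. Summed levels were at most 17.0 CPM for the endothelial list, 4.08 CPM for the immune list and 15.6 CPM for the glial list, in any library, with Kdr, Tie1 and Esam at 0 among endothelial genes, Ptprc and 6 more of 10 immune genes at 0, and Cdh19 at 0 among glial genes. The mural list, 1066 to 1935 CPM in WT and 849 to 2286 CPM in Jag2sm, was mostly Acta2, which myoblasts express as well. Of its 3 tested genes Abcc9 was called lower, from 44 counts. Rgs5 went the other way, with a log2 fold change of 3.73, and was not called (adjusted p = 0.13 by edgeR). Acta2, at -0.26, was not called. Of 11 tested genes of MuSCs and myoblasts, Des was called lower, with a log2 fold change of -1.63 (adjusted p = 0.024 by edgeR, 0.060 with the batch as a paired block, 0.060 without Jag2sm replicate 1 and 0.089 without Jag2sm replicate 2), and the median of the list was -0.19.

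Collagen chains are hydroxylated and folded in the endoplasmic reticulum, cut and cross-linked outside the cell, read by integrins and discoidin domain receptors, and broken down by metalloproteinases and cathepsins. Over these lists, 39 genes were tested and 3 were called, a share near the 6.26% of all tested genes that were called in either direction. Of 19 tested genes of modification and folding, 0 were called higher and 1 lower, with 12 positive log2 fold changes and a median of 0.36. The called gene was Tmem38b, a cation channel of the endoplasmic reticulum also called TRIC-B, at 127, 76.9 and 87.3 CPM in WT and at 24.0, 21.4, 10.8 and 37.5 CPM in Jag2sm. Every Jag2sm library was below every WT library, as for 12.2% of all tested genes. Its log2 fold change was -2.00 (SE 0.36) with an adjusted p of 0.011 by edgeR. Serpinh1, the collagen chaperone HSP47, was at 559 to 721 CPM in WT and 733 to 992 CPM in Jag2sm, with a log2 fold change of 0.38 (SE 0.23) and an adjusted p of 0.41. The proline hydroxylase genes P4ha1 and P4ha2 had log2 fold changes of 0.30 and 0.55.

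Of 7 tested genes of cleavage and cross-linking, edgeR called 0 and the median was 0.06, and 1 had an unadjusted p under 0.05, where 19.7% of all tested genes did. This was Pcolce2, an enhancer of procollagen cleavage, at 1.22 (SE 0.41, adjusted p = 0.12 by edgeR). Lox, the gene of lysyl oxidase, had 49 counts and was not tested. Of 7 tested genes of breakdown, edgeR called 0, 3 had an unadjusted p under 0.05 (19.7% of all tested genes did), 6 had a positive log2 fold change and the median was 0.44. The largest of these was Mmp16, a membrane metalloproteinase, at 2.05 (SE 0.72, adjusted p = 0.13), from 48 counts. DESeq2 called Timp1, an inhibitor of metalloproteinases, higher (adjusted p = 0.040), where edgeR gave a log2 fold change of 1.19 and an adjusted p of 0.11.

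Of the 6 tested receptor genes, 2 were called higher and 0 lower, with a median of 0.74, where 1.42% of all tested genes were called higher. Ddr2, the discoidin receptor of fibrillar collagens, was at 40.4, 44.6 and 25.6 CPM in WT and at 56.6, 74.6, 84.3 and 78.3 CPM in Jag2sm, a log2 fold change of 1.03 (SE 0.26) with an adjusted p of 0.042 by edgeR. With the batch as a paired block, its adjusted p was 0.11. Antxr1, which binds collagens and the anthrax toxin, was at 40.4, 55.6 and 53.1 CPM in WT and at 83.4, 123, 130 and 88.0 CPM in Jag2sm, a log2 fold change of 1.04 (SE 0.24) with an adjusted p of 0.029. For both, every Jag2sm library was above every WT library, as for 10.3% of all tested genes. Antxr1 lost its call when WT replicate 2 (adjusted p = 0.094), WT replicate 3 (0.12) or Jag2sm replicate 2 (0.091) was left out, and that of Ddr2 was above 0.05 in 6 of the 7 fits that left out a library. Ddr1, the discoidin receptor of epithelia, was at 171 to 231 CPM in WT and 106 to 132 CPM in Jag2sm, with a log2 fold change of -0.71 (SE 0.20) and an adjusted p of 0.062. DESeq2 called it lower (adjusted p = 0.036), as did edgeR after removal of a trend on length (0.047) or on GC content (0.048), or with the Xist term (0.049). Itgb1, the β chain shared by collagen-binding integrins, was at -0.63 (adjusted p = 0.10) with edgeR and was called lower by DESeq2 (0.025), and the α chains Itga1, Itga2, Itga10 and Itga11 had 3, 9, 15 and 7 counts.

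**Figure D5:**
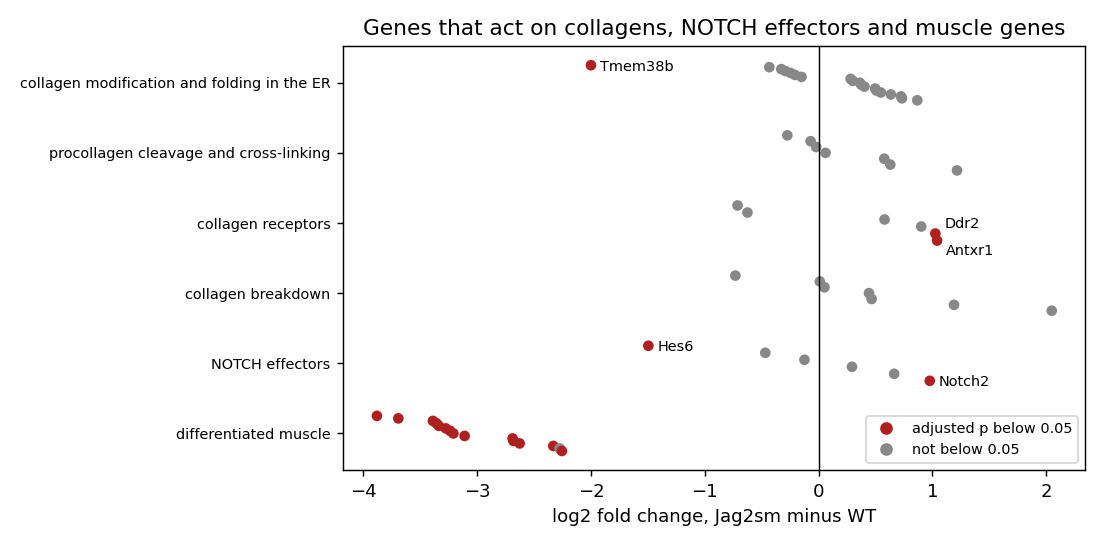
Log2 fold change of Jag2sm over WT of each tested gene in 6 lists, 1 point a gene, red where the adjusted p was under 0.05. Tmem38b (-2.00) lies apart from the other genes of collagen folding, Ddr2 (1.03) and Antxr1 (1.04) are the called receptors, and 14 of 15 genes of differentiated muscle are red.

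The list of NOTCH effectors holds receptors too, and its 6 tested genes were Hes1, Hes6, Rbpj, Notch1, Notch2 and Notch3. So its median does not describe effectors alone. Of the 6, 1 was called higher and 1 lower, where 1.42% and 4.84% of all tested genes were. The called genes were Notch2, a receptor, and Hes6, a HES family member of differentiating cells. Their log2 fold changes were 0.98 (adjusted p = 0.029 by edgeR) and -1.50 (adjusted p = 0.011), and the median of the list was 0.08. The adjusted p of Notch2 with the batch as a paired block was 0.051, and it was 0.056 to 0.16 without WT replicate 2 or 3 or Jag2sm replicate 2 or 3. Hes1 was at -0.47 (adjusted p = 0.32), and Hey1 and Heyl, with 31 and 57 counts, were not tested.

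Counting could not always assign reads to 1 gene. Of the 22 measured collagens, 15 share exon bases with another gene, in each case with at least 1 on the opposite strand. Col18a1 shares some with Slc19a1, which was at 10.4 to 24.5 CPM, and Col19a1 shares some with a non-coding gene. Col25a1, Col1a1, Col5a2, Col6a1, Col6a3, Col24a1 and Col4a5 share none.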

How the data were processed

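RNA of cultured MuSCs was read as direct cDNA on nanopores. Per the study's methods and processing notes, the authors called bases with dorado, used minimap2 2.17 to align reads to GRCm39 and HTSeq to count them per gene, and ran DESeq2 in R 4.3.0. The version and strand setting of HTSeq and the annotation release are not given in the sources used here. The authors deposited raw counts per gene for each library, 56748 genes and 5 summary rows that name no gene. The summary rows, 45.0% to 75.2% of a library's total, were left out of library sizes and tests. The authors' table of fold changes and p-values was not used.

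Counts were tested in R 4.3.3 with edgeR 4.0.16 (TMM, filterByExpr with a minimum count of 10 and a total of 15, glmQLFit and glmQLFTest, no covariate). The standard error is the log2 fold change over the square root of F. CPM use TMM library sizes, and log2 CPM a prior count of 2. Levels and chain ratios per kilobase divide CPM by transcript length, and whether counts of these nanopore reads rise with length was not tested. Binomial intervals are exact, and floors take 3 counts, and both cover counting error only. Names, lengths and exons came from GENCODE M39 on GRCm39, which held 56017 of the identifiers, 31625 of them in the same version. The script was tested on simulated data.

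The rule names every member with at least 15 counts, called genes of the other lists with the largest changes, and a few fixed receptors, enzymes and effectors. Some members below 15 counts, some genes of the lists, and Rgs5, Sox9 and Slc19a1, were named after their values were seen. Members, lists and classes were chosen with earlier results of these data known. The lists were those of collagen folding, cleavage and cross-linking, receptors and breakdown, and of NOTCH effectors and receptors. The others were markers of MuSCs, differentiated muscle, and fibro-adipogenic, tenocyte, endothelial, mural, immune and glial cells. The labels give a batch number equal to the replicate number, which pairs the first 3 libraries of each genotype. Deviations from the genotype mean correlated at 0.0740, 0.0144 and 0.0539 within batches 1, 2 and 3, across genes. Alternatives were DESeq2 1.42.0, limma-voom (limma 3.58.1), other scalings and filters, the paired block, length or GC trends removed with a lowess span of 0.5, a term for libraries with Xist counts, added after the data were seen, and leaving out each library.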

Additional observations from a re-analysis of the deposited data

Results flagged for a closer look

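In the 4 Jag2sm libraries, the gap between the most distant library and its nearest neighbour was set against the whole range of the group for each of the 22 measured collagens and for 6 sums over a class. Of these 28 sets of values, 3 had a gap above the 95% critical value of Dixon's test. They were Col2a1, with a share of 0.971 through 24.0 CPM in replicate 1, Col15a1, with 0.960 through 17.2 CPM in replicate 3, and Col13a1, with 0.842 through 18.2 CPM in replicate 3. The test's rate of about 1 in 20 by chance holds for independent normal values. Many of these counts were low and the sums share members with the genes, so the 3 cannot be read as an excess. The rule was not applied to the 3 WT libraries.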

How the results depend on the processing

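Across 22 other settings, Col19a1 and Col25a1 remained called lower in each of the 21 in which they were tested, with adjusted p up to 0.010 by the respective tools. Neither passed a minimum of 10 counts in every library, which left 2 collagens, 0 called lower, a median log2 fold change of 0.63 and 1 called gene of collagen processing, receptors and breakdown, where 3 were called by edgeR. The number of collagens called higher, 0 by edgeR, was 1 with DESeq2, in the form with a baseMean of 10 or more too, and with limma-voom, 2 with no filter, and 1 with the term for libraries with Xist counts. Genes called in the 4 lists of processing, receptors and breakdown were 6 with DESeq2 (both forms) and 5 with no filter. Leaving out 1 library gave 0 collagens called higher, 2 to 3 called lower, 1 to 4 called genes of the 4 lists, and a median of -0.46 to 0.30. With no filter, the 2 collagens called higher were Col3a1 (adjusted p = 0.031) and Col2a1 (0.0089), the second with 17 of 19 counts in 1 library.

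With the batch as a paired block, 2 collagens were called lower and 0 higher, the median was -0.48, and of the calls in all lists Ddr2, Notch2, Des and Mymx (adjusted p = 0.067) were lost and Tnnt1 (0.011) was gained, so that the count for differentiated muscle was again 14. It changed no other call among these genes and the collagens. Log2 fold changes that took the other sign were those of Col4a1, with DESeq2 (0.045 in both forms), library size alone (0.12), the paired block (0.18, and 0.16 and 0.17 with length or GC removed) and the Xist term (0.086), and of Col5a2, with limma-voom (-0.025) and the Xist term (-0.094). With the Xist term, Col26a1 was at 0.21 and Col12a1 at 0.20. Fits without 1 library spanned both signs for Col4a1 (-0.33 to 0.43), Col4a2 (-0.80 to 0.19), Col5a2 (-0.23 to 0.23), Col1a1 (-2.21 to 0.30), Col6a3 (-2.30 to 0.67), Col12a1 (-0.54 to 0.046) and Col26a1 (-0.64 to 0.053). The causes were not tested. Scaling by library size alone moved the median of all tested genes from 0.05 to 0.21. Depth limits the collagens below about 100 counts, and WT replicate 1 most.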

Other observations

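Xist, the RNA of the inactive X chromosome, had 75, 155 and 631 counts in WT replicate 1, Jag2sm replicate 1 and Jag2sm replicate 3 and at most 4 in the other libraries, which held 110 to 191 counts of Y-linked genes against 0 to 4. Col12a1 was at 7.07 to 17.3 CPM in the 3 libraries with Xist counts and at 26.6 to 36.7 CPM in the other 4, and Col26a1 at 5.66 to 17.3 CPM and 27.1 to 39.9 CPM. These 2 of 16 tested collagens did not overlap between those libraries, as 6.19% of all tested genes did not. The split was found in the data and crosses the genotypes, the 3 libraries include the shallowest, and no test was made of it.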
